A study of Mus musculus with 15 samples.

Results

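RPE/choroid tissue from mice labelled Prom1-KO was compared with RPE/choroid tissue from wild-type (WT) mice by bulk RNA sequencing. The samples were chosen by their genotype and library labels, 3 labelled WT and 3 labelled Prom1_KO, and make up 6 of the 15 samples of the series. The others are cultured mouse RPE cells and are not used here. The comparison asks how tissue from eyes meant to lack Prom1 in the retinal pigment epithelium (RPE) differs from WT tissue. Prom1 encodes prominin 1, a membrane glycoprotein of cell protrusions and photoreceptor discs.

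The Prom1-KO group came from a cross of Prom1fl/fl mice, whose Prom1 alleles are flanked by loxP sites, with RPE65-Cre mice, and tamoxifen was given by gavage so that Prom1 would be removed in the RPE while photoreceptors kept it. The Cre line bears the name of Rpe65, a gene of the RPE, and where the Cre transgene lies in the genome is not given in the sources used here. Nor are the exons that the loxP sites flank, the interval after tamoxifen, the sex and age of these 6 samples, whether the WT mice carried Cre or received tamoxifen, and how many eyes or animals made up a sample. The study's methods name mice of both sexes aged 6 to 8 weeks for the project in general. Because separate animals are not stated, the p-values measure the spread between these samples. The samples are called WT-1 to WT-3 and KO-1 to KO-3 here, KO meaning labelled Prom1-KO.

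The RPE is a single layer of pigmented cells between the photoreceptors and the choroid, the vessel bed that feeds the outer retina. It takes up the shed tips of photoreceptor outer segments and runs the visual cycle, in which all-trans-retinol is esterified by Lrat, isomerised by Rpe65 and oxidised by retinol dehydrogenases such as Rdh5 and Rdh10 to give back the chromophore of the visual pigments. The choroid adds endothelial cells, pericytes, melanocytes, fibroblasts and immune cells to the dissected tissue.

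Total counts per sample were 59625225 in WT-1, 52590233 in WT-2, 51742746 in WT-3, 48154444 in KO-1, 57016531 in KO-2 and 61766179 in KO-3. Much of this depth fell on the mitochondrial ribosomal RNAs mt-Rnr1 and mt-Rnr2, which took 58.7%, 59.6% and 55.3% of the counts in WT-1 to WT-3, 63.2% in KO-1, 62.9% in KO-2 and 80.4% in KO-3, although the labels give polyA RNA. KO-3 therefore stood apart, and counts outside mitochondrial genes and 18S ribosomal RNA came to 8626409 in KO-3 against 12847343 to 17824537 in the other 5 samples. The samples also matched different sexes. Xist, the X-inactivation transcript of females, had 67793 counts in KO-1 and 70171 in KO-2 but 229, 213, 225 and 54 in WT-1, WT-2, WT-3 and KO-3. Counts of the Y-linked Ddx3y were 1452, 1227 and 1418 in the WT samples and 790 in KO-3, against 1 in KO-1 and 0 in KO-2. KO-1 and KO-2 thus matched female mice, while KO-3 and all 3 WT samples matched males, so genotype and sex were in part confounded and genes of chromosomes X and Y were left out of every count of genes.

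**Figure D1:**
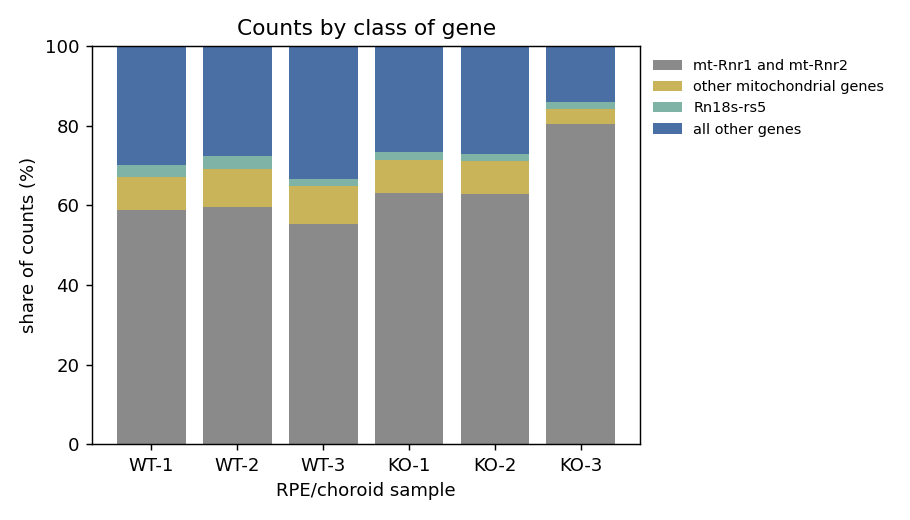
Share of all counts (%) in each RPE/choroid sample that fell on the mitochondrial ribosomal RNAs mt-Rnr1 and mt-Rnr2, on other mitochondrial genes, on 18S ribosomal RNA (Rn18s-rs5) and on all other genes, as stacked bars that sum to 100. The ribosomal share was 80.4% in KO-3 and 55.3% to 63.2% in the other 5 samples.

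Prom1 (ENSMUSG00000029086, chr5:44150962-44259395, minus strand, GRCm39) did not separate the labels. Its counts were 3472, 2930 and 3659 in WT-1 to WT-3 and 2570, 2947 and 1071 in KO-1 to KO-3. On the CPM scale (counts per 10⁶, with totals scaled by the trimmed mean of M values), the WT samples had 48.7, 49.6 and 53.3 and the KO samples 49.9, 48.1 and 35.5. KO-1 lay between WT-2 and WT-3, KO-2 just under the WT samples and KO-3 lowest, so the groups overlapped. The log2 fold change, KO against WT, was −0.18 (SE 0.16, n = 3 per group, edgeR adjusted p = 0.824), and it ranged from −0.59 to −0.06 over the other settings and samples left out. A count over the whole gene takes in exons outside the loxP sites and Prom1 RNA of cells without Cre, so it does not check the deletion. The direction of every difference below therefore rests on the sample labels.

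Transcripts of the RPE, those of Rpe65, Rgr, Lrat, Rdh10 and Rdh5 among them, were lower in the samples labelled Prom1-KO, and in the edgeR fit no gene passed both limits in the opposite direction. In bulk tissue, fewer cells of a type and less RNA per cell cannot be told apart. With edgeR's quasi-likelihood test, 47 of 24171 genes outside chromosomes X and Y were called lower (0.194%) at an adjusted p under 0.05 and a log2 fold change beyond 1.2. Called higher were 0 genes (0%). An unadjusted p under 0.05 was reached by 2003 of the 24171 genes whatever their fold, against which the list counts at that p are read, and beyond the same fold 321 of these were higher and 389 lower. DESeq2 called 79 higher and 188 lower, a split of 29.6% higher, and limma-voom called 1 higher, the interferon-inducible GTPase transcript Gvin3, and 46 lower. All 47 had every KO sample below every WT sample, as did 1930 genes in all (7.98%), while 1604 genes had every KO sample above every WT sample (6.64%). With 3 samples per group, a call at these limits nearly requires separate groups, so their separation in all 47 adds no support. The median log2 fold change over all genes outside X and Y was 0.01. With library size alone as the scale this median moved to −0.46, and under it genes close to 0 turned negative, so values near 0 are read against that shift.

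The number of genes called lower depended on single samples. It was 14 without WT-1, 21 without WT-2, 20 without WT-3, 28 without KO-1, 9 without KO-2 and 33 without KO-3. The genes Jakmip2, Inpp5k, Col9a3, Lrat, Ermap, Tshr and Slc16a8 were called in all 6 of these fits, 7 more in 5 of them, and 9 of the 47 in none. Leaving out a sample brought up to 4 genes over the limits in the higher direction: Igha, Ighm, Igkc and Mobp without KO-1, C4b without KO-3 and the neurofilament gene Nefh without WT-3. With a term for the matched sex, added after seeing the data, where the contrast rests on the single sample KO-3 against the WT males and the spread comes from the WT samples and from KO-1 with KO-2, 12 genes were called lower and 5 higher (Gm10054, Gm37402, Gm49890, Ndufb1 and Pdcd5). In that fit 8 of the 47 were called (Jakmip2, Inpp5k, Col9a3, Slco1c1, Rhobtb2, Cyp4f17, Cspg5 and Rdh5) and all 47 kept a negative fold change. With 1 KO sample in the contrast, calls gained or lost under the sex term are weak grounds for any single gene. KO-3 lay below every WT sample in all 47, so their negative sign in that fit was given beforehand.

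The isomerase gene Rpe65 (ENSMUSG00000028174, chr3:159304802-159330958, plus strand, GRCm39) had 279.8, 204 and 287 CPM in WT-1 to WT-3 and 1.13, 5.97 and 4.48 CPM in KO-1 to KO-3. Every WT sample was far above every KO sample, KO-1 being the lowest. The log2 fold change was −6.06 (SE 0.62, n = 3 per group, edgeR adjusted p = 0.0191). The opsin gene Rgr (ENSMUSG00000021804, chr14:36756866-36770921, minus strand), whose product is a retinal-binding receptor of RPE and Müller cells, had 759, 546 and 786 CPM in WT and 6.70, 30.7 and 18.3 CPM in KO-1 to KO-3. KO-1 was again the lowest, and the groups lay far apart, the log2 fold change being −5.23 (SE 0.57, edgeR adjusted p = 0.0242). Both calls held without KO-1, the most extreme sample (adjusted p of 0.0125 for Rpe65 and 0.0141 for Rgr), and were lost without any other sample. For Rpe65 the edgeR adjusted p was then 0.0857, 0.0605 and 0.0538 without WT-1, WT-2 and WT-3, 0.0799 without KO-2 and 0.0942 without KO-3. For Rgr it was 0.103, 0.0693 and 0.0711 without the WT samples in turn, 0.0546 without KO-2 and 0.113 without KO-3. Over these fits the log2 fold change stayed between −6.55 and −5.62 for Rpe65 and between −5.81 and −4.84 for Rgr, and with the sex term it was −5.84 and −5.25 (adjusted p of 0.0862 and 0.0942).

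Lrat (ENSMUSG00000028003, chr3:82799886-82811288, minus strand), which makes the retinyl esters that Rpe65 uses, had 164, 109 and 165 CPM in WT and 11.96, 12.9 and 15.9 CPM in KO-1 to KO-3. The KO samples were close to each other and the lowest WT sample was WT-2. The log2 fold change of −3.43 (SE 0.22, edgeR adjusted p = 0.00445) kept its call whichever sample was left out, with −3.20 and an adjusted p of 0.0591 under the sex term. Rdh10 (ENSMUSG00000025921, chr1:16175555-16203958, plus strand), a retinol dehydrogenase, had 76.4, 49.6 and 72.6 CPM in WT and 12.1, 10.3 and 11.5 CPM in KO. The KO samples again formed a narrow band under all WT samples, and the log2 fold change was −2.55 (SE 0.20, edgeR adjusted p = 0.00556, and 0.0546 without KO-2 and 0.0618 with the sex term). Rdh5 (ENSMUSG00000025350, chr10:128749385-128759341, minus strand), which encodes a retinol dehydrogenase of the RPE, had 65.5, 50.7 and 62.0 CPM in WT and 15.9, 16.1 and 9.59 CPM in KO-1 to KO-3. The groups did not overlap and KO-3 was lowest. Its log2 fold change was −2.10 (SE 0.23, edgeR adjusted p = 0.0242), which was 0.0169 without KO-3 and above the limit without any other sample, up to 0.109 without KO-2. Under the sex term it was −2.63 with an adjusted p of 0.0493. Rdh5 overlaps Bloc1s1 on the same strand, so its counts are uncertain to the extent that reads were shared.

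Of the 20 genes of the RPE list, 7 were called lower, 0 higher, and 14 had every KO sample below every WT sample. Over all genes these shares were 0.194% called lower and 7.98% with every KO sample below every WT sample. The list was chosen with earlier results of these data known, so its counts and median describe its members and are not a test. The list's median log2 fold change was −1.78, against 0.01 over all genes, and its summed level was 2884, 1845 and 2621 CPM in WT-1 to WT-3 against 343.7, 488 and 387 CPM in KO-1 to KO-3. Besides the 5 visual cycle genes, the called members were Rrh, which encodes the RPE opsin peropsin, and Slc16a8, which encodes the lactate carrier MCT3 of the basolateral RPE membrane. Rrh had 22.2, 19.7 and 23.3 CPM in WT and 5.71, 5.27 and 6.63 CPM in KO, for which the log2 fold change was −1.89 (SE 0.15, edgeR adjusted p = 0.00556, and 0.0546 without KO-2). Slc16a8 had 27.5, 20.0 and 24.4 CPM in WT and 2.58, 4.06 and 2.42 CPM in KO, for which the log2 fold change was −2.98 (SE 0.24, edgeR adjusted p = 0.00692), and it was called whichever sample was left out. Under the sex term neither Rrh nor Slc16a8 was called (adjusted p of 0.0591 for both). Slc16a8 overlaps Pick1 on the opposite strand, and since the strand setting of the counting is not stated, its count is uncertain where they overlap.

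Of the other 13 RPE genes none passed the edgeR test. The groups were separate in 7 of these and overlapped in 6, and over the whole list 19 fold changes were negative and 1 positive (Cldn19, a tight junction gene, at 0.66). Ttr, the transthyretin gene, was the member with the highest mean CPM over all samples, although Rgr stood higher in WT-2 and WT-3. Ttr had 977, 481 and 735 CPM in WT and 48.0, 143 and 80.3 CPM in KO-1 to KO-3 (log2 fold change −3.01, SE 0.45, edgeR adjusted p = 0.0709). KO-2 held more Ttr than the other KO samples and still less than any WT sample. Rlbp1, the retinaldehyde-binding protein gene, stood at 56.8, 31.3 and 51.7 CPM in WT and 14.0, 12.8 and 6.37 CPM in KO (edgeR adjusted p = 0.0929). DESeq2 called Ttr, Rlbp1, Slc6a20a, Ermn and Stra6 in addition, 12 of the 20 in all, and limma-voom called 7. Mitf, a transcription factor of RPE and melanocytes, had 53.9, 52.6 and 44.3 CPM in WT and 27.5, 27.6 and 30.3 CPM in KO (log2 fold change −0.82, edgeR adjusted p = 0.0815). Otx2, a transcription factor of RPE and photoreceptors, overlapped between the groups, at 52.6, 27.9 and 42.3 CPM in WT and 33.3, 26.6 and 17.4 CPM in KO.

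**Figure D2:**
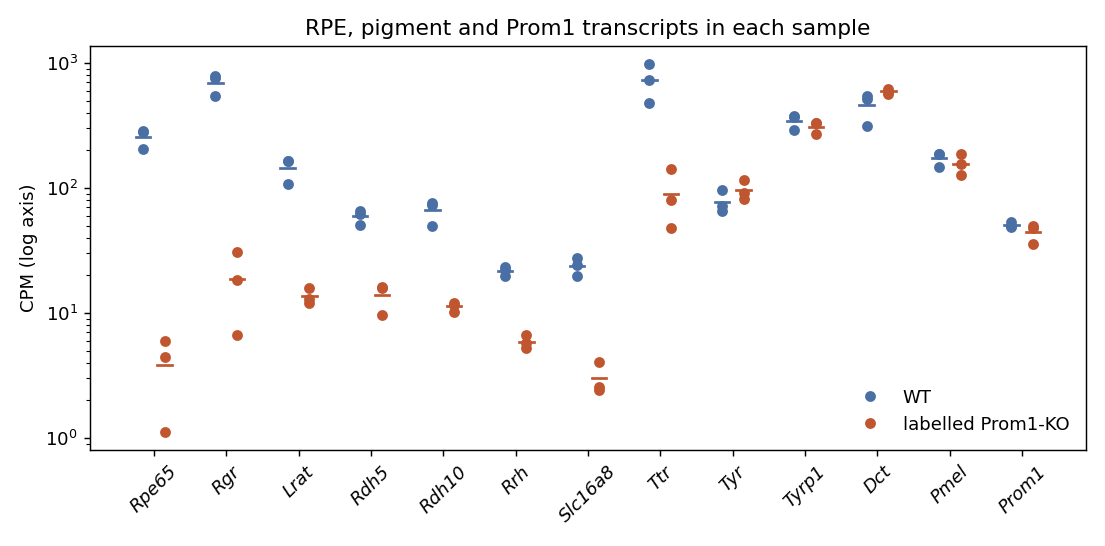
CPM (log axis) of RPE, pigment and Prom1 transcripts in each sample. Points are samples, blue for WT and orange for those labelled Prom1-KO, and short lines are group means. Rpe65 to Ttr lay lower in all 3 KO samples, as from 204 to 287 CPM in WT down to 1.13 to 5.97 CPM in KO for Rpe65, while the melanosome genes Tyr, Tyrp1 and Pmel and the targeted gene Prom1 overlapped. Dct was at 315 to 545 CPM in WT and 570.2 to 619 CPM in KO.

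The 300-base promoter windows of Rpe65, Rgr, Lrat and Rdh5 are printed because these visual cycle genes moved together. RefSeq windows (GRCm38.p6) matched 30 of the 47 genes called lower, with 35 windows. They were searched on both strands for TAATCC, the letters bound by OTX factors. Of the E-box letters bound by MITF, both CATGTG, with its other strand, and the palindrome CACGTG were searched. TAATCC stood in 2320 of 32851 windows of all genes (7.06%) and in 5 of the 35 (14.3%), those of Rpe65, Rgr, Pon1, Sult1c1 and Gm14133. CATGTG stood in 4650 of all windows (14.2%) and in 6 of the 35 (17.1%), while for CACGTG it was 2349 (7.15%) and 4 (11.4%). A match describes the letters and not a bound site.

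The windows lie at chr3:159598931-159599230 (plus strand) for Rpe65, chr14:37048965-37049264 (minus strand) for Rgr, chr3:82903925-82904224 (minus strand) for Lrat and chr10:128919248-128919547 (minus strand) for Rdh5, all on GRCm38.p6 and read 5′ to 3′ along the gene. Capitals mark these motifs in either orientation. The Rpe65 and Rgr windows each hold 1 TAATCC and 1 CATGTG match, and those of Lrat and Rdh5 hold 0.
Rpe65: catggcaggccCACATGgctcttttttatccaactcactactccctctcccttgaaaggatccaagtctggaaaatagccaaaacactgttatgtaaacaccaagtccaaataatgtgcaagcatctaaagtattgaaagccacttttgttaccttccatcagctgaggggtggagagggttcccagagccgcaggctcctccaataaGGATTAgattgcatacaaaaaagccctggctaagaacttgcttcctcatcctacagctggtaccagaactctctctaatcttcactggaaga
Rgr: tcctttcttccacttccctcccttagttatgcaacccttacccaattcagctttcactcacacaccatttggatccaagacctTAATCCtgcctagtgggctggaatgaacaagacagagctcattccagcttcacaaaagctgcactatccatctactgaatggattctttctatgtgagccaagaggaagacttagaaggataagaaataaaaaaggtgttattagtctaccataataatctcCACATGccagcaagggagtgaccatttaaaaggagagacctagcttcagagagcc
Lrat: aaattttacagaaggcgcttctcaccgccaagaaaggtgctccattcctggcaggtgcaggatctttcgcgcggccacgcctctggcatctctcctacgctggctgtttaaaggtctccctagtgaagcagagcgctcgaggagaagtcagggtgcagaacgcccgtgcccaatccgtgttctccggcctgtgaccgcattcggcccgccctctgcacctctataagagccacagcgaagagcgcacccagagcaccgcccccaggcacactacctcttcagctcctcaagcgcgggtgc
Rdh5: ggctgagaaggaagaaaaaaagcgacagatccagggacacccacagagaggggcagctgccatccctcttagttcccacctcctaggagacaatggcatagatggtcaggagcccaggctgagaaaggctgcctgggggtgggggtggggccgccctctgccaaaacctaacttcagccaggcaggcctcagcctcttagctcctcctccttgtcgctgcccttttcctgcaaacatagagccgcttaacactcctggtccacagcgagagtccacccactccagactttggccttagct

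The remaining genes called lower were not on the RPE list. The smallest p belonged to Jakmip2, which encodes a coiled-coil protein (ENSMUSG00000024502, chr18:43663118-43820840, minus strand, GRCm39), with 16.4, 13.7 and 18.5 CPM in WT and 1.86, 1.91 and 1.82 CPM in KO. The KO samples were nearly equal, and the log2 fold change was −3.12 (SE 0.16, edgeR adjusted p = 0.00359). Inpp5k, an inositol polyphosphate phosphatase gene (chr11:75520578-75539698), had 65.1, 54.3 and 53.4 CPM in WT and 11.5, 12.7 and 10.9 CPM in KO (log2 fold change −2.30, SE 0.14, edgeR adjusted p = 0.00445). Ermap, a membrane protein of the butyrophilin-like family, stood at 8.56, 6.90 and 11.7 CPM in WT and 0.116, 0.229 and 0.299 CPM in KO, from 408 to 804 counts down to 6 to 14 (log2 fold change −5.44, SE 0.36, edgeR adjusted p = 0.00445, and 0.0591 with the sex term). Col9a3, a type IX collagen chain gene, fell from 27.0, 31.4 and 28.9 CPM to 6.60, 6.38 and 7.70 CPM (log2 fold change −2.08, SE 0.14, edgeR adjusted p = 0.00445). Col9a3 overlaps Tcfl5, a transcription factor gene also called lower (log2 fold change −2.43), on the opposite strand at 1 end, where their reads are uncertain.

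Receptors and transporters were among them. Tshr, the thyrotropin receptor gene (ENSMUSG00000020963, chr12:91351337-91517124, plus strand), had 46.2, 32.4 and 47.2 CPM in WT and 3.77, 5.58 and 5.11 CPM in KO. The groups were far apart, the log2 fold change being −3.12 (SE 0.22, edgeR adjusted p = 0.00556). Tshr was called whichever sample was left out and not under the sex term (adjusted p of 0.0591). Slco1c1, which carries thyroxine and other organic anions, had 14.5, 13.9 and 13.4 CPM in WT and 1.01, 1.39 and 1.99 CPM in KO (log2 fold change −3.27, SE 0.25, edgeR adjusted p = 0.00556, and 0.0546 without KO-2). Trhde, which encodes the ectoenzyme that degrades thyrotropin-releasing hormone, had 8.04, 8.49 and 14.1 CPM in WT and 0.990, 0.979 and 1.26 CPM in KO (log2 fold change −3.26, edgeR adjusted p = 0.00778, and 0.0799 without KO-2). The adrenergic receptor gene Adra2c and the orphan receptor gene Gpr139 stood at 2.54 to 3.38 and 1.13 to 1.41 CPM in WT and at 0.602 to 0.697 and 0.0326 to 0.116 CPM in KO (edgeR adjusted p of 0.0188 and 0.0274). Adra2c was called only without KO-3 (0.0467) among the fits that left out a sample, and Gpr139 only without KO-1 (0.0192), their highest adjusted p being 0.135 and 0.147 without KO-2.

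Single genes of enzymes that act on lipids were also among those called lower. They are grouped here after their values were seen and were not tested as a set. Acsl6, a long-chain acyl-CoA synthetase gene, had 66.1, 47.9 and 65.6 CPM in WT and 18.8, 17.0 and 13.9 CPM in KO (log2 fold change −1.85, edgeR adjusted p = 0.0179). Gpam, the mitochondrial glycerol-3-phosphate acyltransferase gene, had 53.2, 40.9 and 47.7 CPM in WT and 16.9, 17.9 and 13.1 CPM in KO (log2 fold change −1.57, edgeR adjusted p = 0.0242). Both kept KO-1 to KO-3 below each WT sample. The paraoxonase gene Pon1 fell from 19.5, 14.0 and 23.1 CPM to 0.641, 1.75 and 1.06 CPM (log2 fold change −4.02, edgeR adjusted p = 0.0154), and the cytochrome P450 gene Cyp4f17, which has close paralogs, changed by −1.58 in log2 (edgeR adjusted p = 0.00606). Without WT-1 and without KO-2 the adjusted p was 0.0857 and 0.118 for Acsl6, 0.104 and 0.107 for Gpam, and 0.0512 and 0.0644 for Cyp4f17. For Pon1 it was 0.0755 without WT-1 and 0.0754 without KO-3, and for Acsl6 0.0602 without WT-3. Gpam was called only without KO-3 (0.0433), with 0.0661, 0.0778 and 0.0794 without WT-2, WT-3 and KO-1.

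Genes of transcription factors were also called lower. Hnf4a, a nuclear receptor gene (ENSMUSG00000017950, chr2:163348728-163414830, plus strand), had 119, 63 and 70 counts in WT and 0 in each KO sample. Against a floor of 3 counts over the KO group it was at least 59.6-fold lower (edgeR adjusted p = 0.0293), and among the fits that left out a sample it was called only without KO-3 (0.0495), with 0.0510 without KO-1 and 0.101 without KO-2. Hnf4a passed the count filter only through the WT samples, as did the pseudogene Gm18963, and both failed the filter of each fit without a WT sample. With no filter other than a count above 0, the edgeR adjusted p was 0.0294 for Hnf4a and 0.0199 for Gm18963. Myrf, a membrane-bound transcription factor gene, had 33.4, 23.7 and 27.0 CPM in WT and 2.52, 6.15 and 3.95 CPM in KO (log2 fold change −2.73, SE 0.33, edgeR adjusted p = 0.0329). KO-2 was the highest of the KO samples. Nr4a3, an orphan nuclear receptor gene, had 15.1, 22.2 and 22.4 CPM in WT and 4.99, 7.26 and 6.60 CPM in KO (log2 fold change −1.66, edgeR adjusted p = 0.0471), and Stox1 changed by −2.62 in log2 (edgeR adjusted p = 0.0242). Myrf was called only without KO-1 (0.0366) and Stox1 only without KO-3 (0.0433), while Nr4a3 was called in none of the fits that left out a sample, its adjusted p lying between 0.0702 without WT-1 and 0.175 without WT-2.

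Spry4, an inhibitor of receptor tyrosine kinase signalling, had 7.07, 7.26 and 6.996 CPM in WT and 1.98, 2.15 and 1.92 CPM in KO (log2 fold change −1.81, SE 0.14, edgeR adjusted p = 0.00556, and 0.0546 without KO-2). Dusp6, a phosphatase of ERK kinases, was the only gene outside X and Y to pass the adjusted p limit and not the fold limit, at 14.6, 14.3 and 15.3 CPM in WT and 6.52, 6.84 and 7.83 CPM in KO (log2 fold change −1.06, edgeR adjusted p = 0.0331). Both had narrow ranges within each group. Car12, a membrane carbonic anhydrase gene, had 46.6, 38.1 and 41.9 CPM in WT and 7.57, 14.1 and 8.06 CPM in KO (log2 fold change −2.09, edgeR adjusted p = 0.0357), and Myrip, whose product links melanosomes to myosin VIIa in the RPE, 29.7, 24.9 and 33.5 CPM in WT and 13.6, 10.7 and 11.4 CPM in KO (log2 fold change −1.30, edgeR adjusted p = 0.0358). Among the fits that left out a sample Car12 was called only without KO-2 (0.0442), its adjusted p reaching 0.114 without WT-1, and Myrip was called in none (0.0728 without WT-2 to 0.236 without KO-2). Car12 overlaps Aph1b on the opposite strand. The others called lower included the protein-coding genes Rhobtb2, Ankfn1, Cspg5, Tlcd4, Ptprt, Serpine3, Sult1c1, Cdr2, Wfikkn2 and Cdr2l, the long non-coding RNAs Gm15222, Gm14133, Gm41609, Gm50348, Eprn and Gm45895, and the pseudogene Gm18963. Gm15222 overlaps Bmp4, Gm41609 overlaps Dlgap1 and Serpine3 overlaps Ints6, each on the opposite strand, and these counts are uncertain for the same reason. The same limit holds for Lrat (Rbm46os), Rgr, Rrh, Inpp5k, Ermap, Tshr, Spry4, Rhobtb2, Trhde, Ankfn1, Acsl6, Cspg5, Gpam, Stox1, Tlcd4, Hnf4a, Ptprt, Wfikkn2, Myrip, Nr4a3, Gm14133 and Gm45895, which overlap other annotated genes, on the same strand in Tshr, Ankfn1, Tlcd4, Hnf4a, Myrip and Gm45895 among them. Over all 47 genes the log2 fold change ran from −9.16, fitted for Hnf4a, to −1.27 for Cdr2l.

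Transcripts of the pigment pathway did not follow those of the visual cycle. Of 12 melanosome and pigment genes, 0 were called by edgeR, DESeq2 or limma-voom, 0 had an unadjusted p under 0.05, and their median log2 fold change was −0.15 (−0.57 with library size alone, where the median of all genes was −0.46). Tyrp1, which encodes an oxidase of melanin synthesis, had 374, 368 and 292 CPM in WT and 331, 328 and 269 CPM in KO. Pmel, the fibril protein gene of melanosomes, had 186, 188 and 146 CPM in WT and 154, 186 and 128 CPM in KO, and Tyr, the tyrosinase gene, 95.8, 71.5 and 65.3 CPM in WT and 115, 91.9 and 81.5 CPM in KO. The groups overlapped in all of these. Dct, dopachrome tautomerase, was the only member with separate groups, at 545, 517 and 315 CPM in WT and 591, 570.2 and 619 CPM in KO (log2 fold change 0.37, edgeR adjusted p = 0.739, and −0.09 with library size alone). The sum over the list was 1654, 1481 and 1129 CPM in WT and 1669.7, 1639 and 1418 CPM in KO. RPE and choroidal melanocytes share these genes, and which cells they came from was not tested. Of 8 melanocyte genes 0 were called by any of the 3 tools and 1 had an unadjusted p under 0.05, with a median of −0.23 and sums of 157, 191 and 157 CPM in WT and 108, 134 and 153 CPM in KO. Ednrb, the endothelin receptor gene of the melanocyte lineage and the member with the highest mean CPM, had 80.7, 106 and 76.8 CPM in WT and 53.5, 70.0 and 70.3 CPM in KO (edgeR adjusted p = 0.585). Sox10 had 22.5, 27.7 and 34.1 CPM in WT and 13.4, 13.9 and 27.0 CPM in KO.

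**Figure D3:**
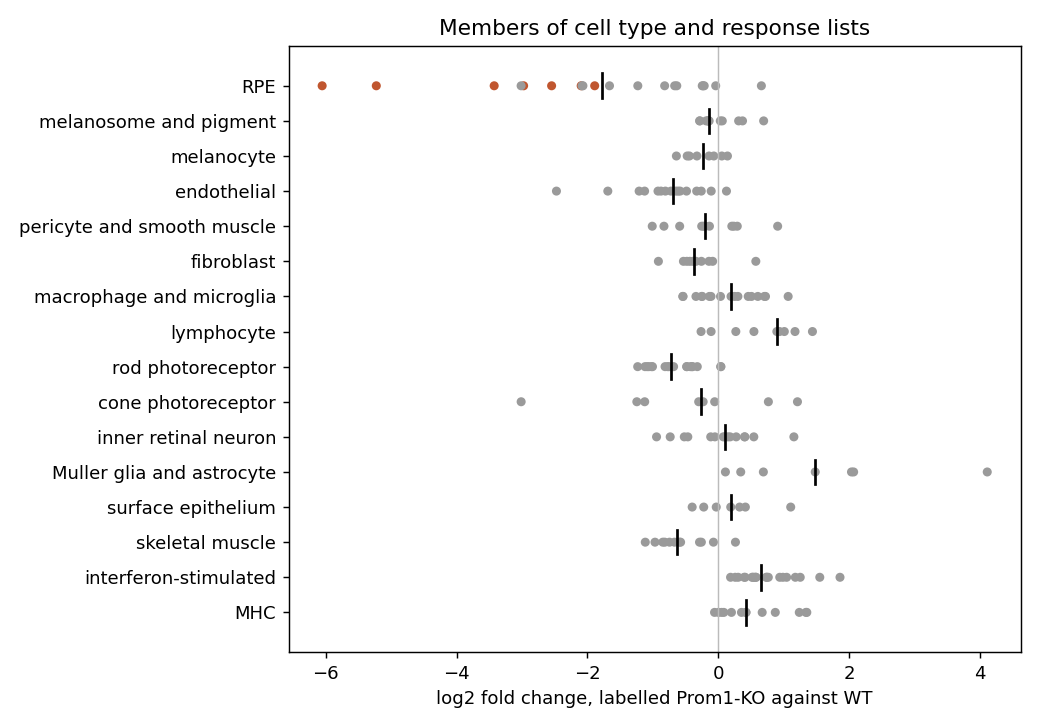
Log2 fold change, labelled Prom1-KO against WT, of each tested member of 16 cell type and response lists. Points are genes, orange where called by edgeR and grey where not, and black bars are list medians. The RPE list, with a median of −1.78, was the only list with called members, and the other medians shown lay between −0.72 for rod photoreceptor and 1.48 for Müller glia and astrocyte. The lists were chosen with earlier results of these data known, so the contrast between them is not a test. With library size alone the median of all genes is −0.46 and the MHC, macrophage, inner retinal neuron and surface epithelium medians turn negative.

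Endothelial transcripts lay lower in part, short of the test. Of 16 endothelial genes 0 were called by edgeR or limma-voom, 3 by DESeq2 (Car4, Plvap and Tie1), and 10 had an unadjusted p under 0.05. Their median was −0.69, 15 of the 16 had a negative fold change, and 7 had every KO sample below every WT sample, as did 7.98% of all genes. Plvap, which encodes the diaphragm protein of fenestrated capillaries such as the choriocapillaris, had 8.85, 17.1 and 10.9 CPM in WT and 3.94, 4.54 and 2.89 CPM in KO (log2 fold change −1.69, SE 0.28, edgeR adjusted p = 0.0993). Car4, a carbonic anhydrase gene of the choriocapillaris, had 0.771, 1.201 and 0.670 CPM in WT and 0.194, 0.114 and 0.166 CPM in KO (edgeR adjusted p = 0.0843). Kdr, the main receptor gene for VEGF in endothelium, had 24.0, 49.1 and 32.2 CPM in WT and 22.3, 16.6 and 9.25 CPM in KO (edgeR adjusted p = 0.443). WT-2 was the highest WT sample in each of these genes. The list's sum was 208, 415 and 283 CPM in WT-1 to WT-3 and 217.5, 189.9 and 180.1 CPM in KO-1 to KO-3. Ptprb, its member with the highest mean CPM, overlapped at 53.4, 115 and 77.9 CPM in WT and 73.0, 60.4 and 71.8 CPM in KO.

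Mural cells and fibroblasts showed smaller differences. Of 11 pericyte and smooth muscle genes 0 were called by the 3 tools, with a median of −0.20 and 3 at an unadjusted p under 0.05. The pericyte receptor gene Pdgfrb had 20.0, 31.1 and 24.3 CPM in WT and 13.8, 13.0 and 15.6 CPM in KO (log2 fold change −0.83, edgeR adjusted p = 0.201), while Rgs5 overlapped at 177 to 298 CPM in WT and 187 to 207 CPM in KO. Of 10 fibroblast genes 0 were called by the 3 tools and 0 had an unadjusted p under 0.05, with a median of −0.36. Their sums followed the sample and not the label, at 972, 1713 and 1961 CPM in WT and 984, 874 and 1910 CPM in KO, the proteoglycan gene Dcn leading at 545 to 1157 CPM.

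Immune transcripts were mixed, and none passed the edgeR test. Of 17 macrophage and microglia genes 0 were called by the 3 tools, 5 had an unadjusted p under 0.05, and the median was 0.19 (−0.26 with library size alone). Csf1r, the receptor gene for macrophage colony-stimulating factor, had 24.6, 25.4 and 26.9 CPM in WT and 17.7, 15.9 and 19.2 CPM in KO (log2 fold change −0.54, edgeR adjusted p = 0.211). Cx3cr1, the fractalkine receptor gene, lay the other way at 0.884, 1.13 and 1.27 CPM in WT and 2.31, 2.01 and 2.59 CPM in KO (log2 fold change 1.07, edgeR adjusted p = 0.196). Neither gene's groups overlapped. The list's sum was 333, 414 and 342 CPM in WT and 372, 290.4 and 381 CPM in KO, led by the lysozyme gene Lyz2 at 139 to 233 CPM.

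Of 9 lymphocyte genes 0 were called by the 3 tools, 3 had an unadjusted p under 0.05, and the median was 0.90 (0.44 with library size alone), on sums of only 16.2, 24.3 and 19.2 CPM in WT and 26.7, 26.8 and 31.9 CPM in KO, most of them Ptprc. Immunoglobulin constant genes, named after their values were seen, were higher in all KO samples without passing the edgeR test. Igkc had 0.813, 0.575 and 1.08 CPM in WT and 3.14, 7.12 and 6.27 CPM in KO (log2 fold change 2.74, SE 0.37, edgeR adjusted p = 0.0540). Igha had 1.47, 1.74 and 1.25 CPM in WT and 3.73, 11.3 and 16.4 CPM in KO, and Ighm 2.65, 2.69 and 2.81 CPM in WT and 4.79, 15.1 and 10.4 CPM in KO (edgeR adjusted p of 0.122 and 0.177). KO-1 was the lowest KO sample in all of these, and without it the adjusted p was 0.0230 for Igkc, 0.0141 for Igha and 0.0213 for Ighm. DESeq2 called all of them. Mast cell genes (4 tested, median 0.36) and neutrophil genes (3 tested, median 0.30) summed to at most 5.31 and 1.49 CPM in any sample, with 0 called by any of the 3 tools and 0 at an unadjusted p under 0.05.

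All 20 interferon-stimulated genes had a positive fold change in the main fit, and 0 were called by edgeR or limma-voom. In 10 of them every KO sample lay above every WT sample, as in 6.64% of all genes. DESeq2 called 1, Ifi44, and 10 had an unadjusted p under 0.05. The median was 0.65, and 0.25 with library size alone. Under that scale not all 20 stayed positive, Stat2 (−0.15) and Rigi (−0.22) being among those that turned negative. Rtp4, an interferon-induced chaperone gene, had 1.87, 2.06 and 2.07 CPM in WT and 3.51, 5.66 and 4.38 CPM in KO (log2 fold change 1.18, SE 0.21, edgeR adjusted p = 0.122). Ifi44 had 1.58, 1.47 and 1.76 CPM in WT and 3.71, 7.18 and 3.18 CPM in KO, and Ifit3, which encodes an antiviral RNA-binding partner, 14.6, 8.73 and 10.8 CPM in WT and 21.8, 27.2 and 16.4 CPM in KO (edgeR adjusted p of 0.186 and 0.313). KO-2 was the highest sample in each of these. The list's sum was 137, 125 and 119 CPM in WT and 163, 251.5 and 159.9 CPM in KO.

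Of 13 MHC and antigen presentation genes 0 were called by edgeR or limma-voom, 3 by DESeq2 (H2-Aa, H2-Ab1 and H2-Eb1), and 6 had an unadjusted p under 0.05. The median was 0.42 and −0.05 with library size alone. The class II chain gene H2-Aa had 16.1, 24.1 and 21.0 CPM in WT and 39.8, 36.6 and 68.1 CPM in KO (log2 fold change 1.24, edgeR adjusted p = 0.201), and its partner H2-Ab1 18.1, 28.1 and 34.0 CPM in WT and 51.6, 41.9 and 112 CPM in KO. KO-3 was the highest sample for both. B2m, the light chain of class I, had 328, 335 and 262 CPM in WT and 349.9, 438 and 449.9 CPM in KO (edgeR adjusted p = 0.596), while H2-D1 overlapped, with a log2 fold change of 0.00. MHC genes resemble each other, so their separate counts are uncertain.

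Complement and stress genes gave single members that stood out. Of 11 complement genes 0 were called by edgeR or limma-voom, 1 by DESeq2, and 3 had an unadjusted p under 0.05, with a median of 0.16 (−0.32 with library size alone). That member was C4b, at 24.0, 19.0 and 20.7 CPM in WT and 70.2, 73.9 and 38.2 CPM in KO (log2 fold change 1.52, SE 0.26, edgeR adjusted p = 0.102, and 0.0143 without KO-3). KO-3 was the lowest KO sample, and the near-identical C4a makes the count uncertain. Of 9 retinal stress genes 0 were called by edgeR or limma-voom, 1 by DESeq2, and 4 had an unadjusted p under 0.05, with a median of 0.32 (−0.15 with library size alone). Serpina3n, a protease inhibitor gene of reactive glia with close paralogs, had 46.0, 15.98 and 16.02 CPM in WT and 214, 137 and 94.1 CPM in KO (log2 fold change 2.51, SE 0.50, edgeR adjusted p = 0.177). Of 13 NF-kappaB and cytokine genes 0 were called by the 3 tools and 5 had an unadjusted p under 0.05, with a median of 0.54 (0.09 with library size alone). Its member with the largest fold, the lipocalin gene Lcn2, had 3.89, 2.11 and 1.09 CPM in WT and 30.7, 18.4 and 3.38 CPM in KO, so that KO-3 lay within the WT range.

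Photoreceptor transcripts varied by sample and not by label. Of 18 rod genes 0 were called by the 3 tools and 0 had an unadjusted p under 0.05. Their sum was 179, 90.3 and 1541 CPM in WT-1 to WT-3 and 798, 236 and 53.5 CPM in KO-1 to KO-3. WT-3 and KO-1 thus held most rod RNA and KO-3 least, and the median log2 fold change was −0.72. Cone genes (8 tested, median −0.27) had 0 called by the 3 tools and 1 at an unadjusted p under 0.05, with sums of 15.5, 14.1 and 35.1 CPM in WT and 25.4, 15.97 and 14.7 CPM in KO. Inner retinal neuron genes (15 tested, median 0.10) had 0 called by the 3 tools and 1 at an unadjusted p under 0.05, and summed to 69.8 to 109 CPM in WT and 82.9 to 102 CPM in KO.

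Müller glia and astrocyte genes stood apart from the neuronal lists. All 7 had a positive fold change in the main fit, with a median of 1.48 (1.13 with library size alone). With library size alone Glul (−0.05) and Apoe (−0.26) turned negative. In 4 of the 7 every KO sample lay above every WT sample, as in 6.64% of all genes. EdgeR and limma-voom called 0, DESeq2 called 3 (Gfap, Slc1a3 and Kcnj10), and 5 had an unadjusted p under 0.05. Gfap, the intermediate filament gene of astrocytes and reactive Müller cells, had 0.168, 0.203 and 1.49 CPM in WT and 3.86, 19.7 and 8.82 CPM in KO (log2 fold change 4.11, SE 0.95, edgeR adjusted p = 0.221). The glutamate transporter gene Slc1a3 had 6.10, 2.23 and 7.75 CPM in WT and 20.0, 31.4 and 14.5 CPM in KO (log2 fold change 2.04, SE 0.47, edgeR adjusted p = 0.222). KO-2 was the highest sample in both. Apoe, the member with the highest mean CPM, overlapped at 378, 298 and 218 CPM in WT and 353, 376 and 234 CPM in KO. The glutamine synthetase gene Glul, also used by the RPE, overlapped as well.

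Myelin genes shared the high value in KO-2. Mobp, a myelin gene of oligodendrocytes named after its values were seen, had 0.182, 0.0507 and 0.0729 CPM in WT and 2.37, 35.1 and 13.4 CPM in KO, from 3 to 13 counts up to 122 to 2153 (log2 fold change 7.32, SE 1.13, edgeR adjusted p = 0.0759, and 0.0141 without KO-1). Mbp had 19.1, 20.3 and 13.9 CPM in WT and 17.6, 145 and 39.9 CPM in KO, and Mag 0.210, 0.220 and 0.131 CPM in WT and 0.175, 4.05 and 0.697 CPM in KO (edgeR adjusted p of 0.505 and 0.452). Of the 9 Schwann cell genes tested 0 were called by edgeR or limma-voom, DESeq2 called 1 (Mag), and 3 had an unadjusted p under 0.05, with a median of −0.10. The list's sum was 288, 286 and 244 CPM in WT and 317, 519.7 and 416 CPM in KO, led by Mal at 154 to 297 CPM. Whether the glial values bear on the RPE result was not tested.

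Transcripts of tissue around the RPE and choroid were present in every sample. Surface epithelium genes summed to 1658, 1432 and 978 CPM in WT and 1506, 1995 and 1404 CPM in KO, led by the basal keratin gene Krt5 at 365 to 706 CPM. Of the 7 genes 0 were called by the 3 tools, 1 had an unadjusted p under 0.05 and the median was 0.19. Krt12, the keratin gene of corneal epithelium, had 317, 139.7 and 205 CPM in WT and 398, 479.9 and 547 CPM in KO (log2 fold change 1.11, edgeR adjusted p = 0.336), so its groups did not overlap. Skeletal muscle genes (12 tested, median −0.63) summed to 381, 856 and 1192 CPM in WT and 87.9, 306 and 1156 CPM in KO. The myosin gene Myh4 had the highest mean CPM of these, and 0 of the 12 were called by the 3 tools or had an unadjusted p under 0.05. KO-1 held the least muscle RNA, and KO-3 lay near WT-3. Erythroid genes (4 tested, median −0.08) summed to 36.4, 67.8 and 52.1 CPM in WT and 12.2, 13.3 and 112 CPM in KO, with KO-3 highest, and their near-identical copies make single members uncertain. Lens genes summed to at most 4 CPM. Lens, cartilage and sclera, and erythroid lists each had 0 members called by the 3 tools and 0 at an unadjusted p under 0.05, and the adipocyte list had 0 called and 1 at an unadjusted p under 0.05, with medians of 0.30, −0.35, −0.08 and 0.90. The part of these tissues in the RPE difference was not tested.

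Genes for the uptake of outer segments differed in both directions, short of the test. Of 10 genes 0 were called by the 3 tools, 6 had an unadjusted p under 0.05, and the median was −0.42 (−0.85 with library size alone). Every KO sample lay below every WT sample for 4 of them and above for 3, against 7.98% and 6.64% of all genes. Mertk, the receptor kinase gene for engulfment, had 26.4, 29.7 and 27.4 CPM in WT and 17.0, 18.6 and 20.0 CPM in KO (log2 fold change −0.59, edgeR adjusted p = 0.186), and Itgav, an integrin chain gene of the binding receptor, 81.2, 63.2 and 83.9 CPM in WT and 46.4, 48.4 and 41.0 CPM in KO (log2 fold change −0.75, edgeR adjusted p = 0.184). The groups were separate for both, as for Mfge8 and Myo7a. The Mertk ligand gene Gas6 lay the other way, at 46.4, 36.7 and 39.9 CPM in WT and 57.3, 59.7 and 48.1 CPM in KO (log2 fold change 0.43, and −0.01 with library size alone), as did Pros1 and Itgb5. With library size alone the log2 fold change was 0.02 for Pros1 and −0.33 for Itgb5, so the higher direction of these genes depended on the scale.

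Genes of energy metabolism were not called by edgeR. Of 14 glycolysis and glucose uptake genes 0 were called by edgeR or limma-voom, 1 by DESeq2, and 1 had an unadjusted p under 0.05, with a median of −0.05. That gene was Slc16a1, which encodes the lactate carrier MCT1 of the apical RPE membrane, at 24.0, 13.2 and 24.4 CPM in WT and 6.64, 7.22 and 3.28 CPM in KO (log2 fold change −1.84, SE 0.35, edgeR adjusted p = 0.149). The groups did not overlap, whereas the glucose carrier gene Slc2a1 overlapped at 65.8 to 164 CPM in WT and 48.1 to 141 CPM in KO. Of 17 nuclear oxidative phosphorylation genes 0 were called by the 3 tools, 1 had an unadjusted p under 0.05, 16 had a positive fold change and the median was 0.20 (−0.34 with library size alone). The 11 mitochondrially encoded messenger RNAs had a median of 0.01 and ran from −4.55 for mt-Atp6 to 8.29 for mt-Co2, with 0 called by edgeR or limma-voom and 3 at an unadjusted p under 0.05. DESeq2 called 1, mt-Co2, whose CPM was 0.262 to 1.15 in WT and 31.5, 596 and 5.90 in KO (log2 fold change 8.29, edgeR adjusted p = 0.213), far under mt-Co1 at 13329.7 to 19798 CPM.

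Other response lists had medians near that of all genes. With edgeR, limma-voom and DESeq2 calling 0 members of each, the medians were −0.08 for autophagy and lysosome (20 tested, 1 at an unadjusted p under 0.05), 0.15 for mitophagy (6 tested, 0), −0.02 for NRF2 targets (14 tested, 3), 0.02 for the unfolded protein response (14 tested, 1), 0.01 for heat shock (8 tested, 1), 0.05 for cholesterol synthesis (14 tested, 1), 0.25 for cell cycle (16 tested, 1), 0.15 for epithelial to mesenchymal transition (16 tested, 2), 0.07 for tight junction and polarity (13 tested, 0), −0.02 for necroptosis and pyroptosis (12 tested, 2) and −0.09 for the circadian clock (15 tested, 1). Tjp1, the gene of the junction protein ZO-1, had 104, 94.2 and 92.9 CPM in WT and 113, 118 and 93.6 CPM in KO. Gsta4, a glutathione transferase gene for lipid aldehydes, had 359, 328 and 287 CPM in WT and 382, 457.6 and 827 CPM in KO, with KO-3 highest (edgeR adjusted p = 0.549). Tgfb2, a ligand of the transition list, had 25.0, 11.4 and 18.2 CPM in WT and 47.4, 42.3 and 25.9 CPM in KO (log2 fold change 1.08, edgeR adjusted p = 0.395). Immediate early genes (15 tested, median −0.19, 4 at an unadjusted p under 0.05) had 0 called by edgeR or limma-voom and 1, Nr4a1, by DESeq2. Egr1 had 169, 105 and 32.5 CPM in WT and 30.5, 43.6 and 49.6 CPM in KO, so WT-1 and WT-2 were high and WT-3 lay within the KO range.

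The genes that the study names for its cultured RPE cells were chosen by it on other samples. Of 37 tested here 0 were called by the 3 tools, 6 had an unadjusted p under 0.05, and the median was 0.16 (−0.31 with library size alone). Every KO sample lay above every WT sample in 6 (6.64% of all genes) and below in 1, Mertk (7.98% of all genes). Pcolce2, a procollagen-binding protein gene, had 2.69, 2.60 and 2.87 CPM in WT and 4.81, 4.46 and 5.54 CPM in KO (log2 fold change 0.86, edgeR adjusted p = 0.123). The retinaldehyde dehydrogenase gene Aldh1a1 had 30.2, 31.5 and 28.8 CPM in WT and 38.0, 50.8 and 47.6 CPM in KO, and the extracellular superoxide dismutase gene Sod3 33.4, 18.5 and 24.3 CPM in WT and 56.2, 43.4 and 45.2 CPM in KO (edgeR adjusted p of 0.246 and 0.266). Both had separate groups. In cultured Prom1-KO cells the study reports Pcolce2, Sod3 and Map3k5 higher and Aldh1a1, Mertk and Egfr lower. Aldh1a1 thus lay in the opposite direction in this tissue. Map3k5 and Egfr overlapped, at 14.7 to 18.6 and 107 to 140.0 CPM in WT and 11.05 to 18.3 and 77.6 to 122 CPM in KO.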

How the data were processed

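Bulk RNA sequencing of 6 RPE/choroid samples was analysed. The deposited counts were raw whole-number read counts per gene, which the authors made by trimming with Trim Galore 0.6.7, aligning to mm39 with STAR and counting per gene. Annotation release and strand setting are not given in the sources used here, and the labels name a stranded kit. A deposited signal table, in which the authors divided the same counts by a size factor per sample (DESeq2 1.42.0), was used only to read those factors (0.553 for KO-3, 0.942 to 1.30 for the others).

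A gene was kept where 3 or more of the 6 samples held 5 or more counts (24926 of 25038, 755 of them on X or Y and left out after the fit, 210 with no position and kept). Groups were compared with edgeR 4.0.16 (TMM, quasi-likelihood test) in R 4.3.3, with Benjamini-Hochberg adjustment over all genes tested and limits of 0.05 for adjusted p and 1.2 for the absolute log2 fold change. SE was taken as the size of the log2 fold change over the root of the F statistic. CPM used TMM-scaled totals, whose factors were 1.196, 1.12, 1.33, 1.07, 1.07 and 0.488. Floors and counts carry counting error only. Alternatives were DESeq2 size factors, library size alone, DESeq2 1.42.0, limma 3.58.1 (voom), other filters, other fold limits, mitochondrial, X and Y genes left out, and each sample left out. A term for the matched sex was chosen after seeing the data.

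Named genes were Prom1, the called genes with the smallest p (up to 15), the 4 members of each list with the highest mean CPM, called members, and the 5 RPE markers. Other genes named were chosen after their values were seen. The members and lists were chosen with earlier results of these data known. Of the 43 lists, members on X or Y were left out (among them Arr3, Alas2, G6pdx, Tfe3, Lamp2, Fundc1, Cldn2), and Ca4 was matched as Car4. Gene positions are from GENCODE on GRCm39, promoter windows from RefSeq on GRCm38.p6. Tables were written with pandas 2.3.3 and figures with matplotlib 3.10.9. Some results that need withheld items are not reported here.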

Additional observations from a re-analysis of the deposited data

How the results depend on the processing

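The number of genes called lower was 47 with DESeq2 size factors and with no filter, 46 with limma-voom, 49 with filterByExpr, 53 with mitochondrial, X and Y genes left out before scaling, and 48 with no fold limit or a limit of 1. It was 84 with library size alone and 188 with DESeq2, and 0 genes called higher became 3 (Klk6, Mobp and mt-Co2) and 79. Called higher was 1 gene with limma-voom (Gvin3), 1 with filterByExpr (A330015K06Rik) and 2 with mitochondrial, X and Y genes left out (A330015K06Rik and Igkc). With a sample left out, 9 to 33 genes were called lower and 0 to 4 higher. Those fits hold 1 sample fewer. With the sex term, chosen after seeing the data, 12 were lower and 5 higher, from KO-3 against WT. The cause of these shifts was not tested. All 47 kept a negative fold change under each setting that used all 6 samples. Every KO sample lay below every WT sample in all 47, so their sign could hardly change in these settings. Of their values over all settings, samples left out among them, 532 kept the call and 214 lost it. The 532 include 47 values with no fold limit and 47 with a limit of 1, settings under which no call could be lost. Prom1 passed no test, at −0.59 to −0.06. Among uncalled genes 55 values passed the limits under a setting, and 41 of the 43 list medians moved by more than the spread between samples under some setting (72 values, against 615 that did not). No result changed direction with a call. No paired analysis was possible because the labels give the samples no shared replicate numbers across the groups. KO-3, with 8626409 counts outside mitochondrial genes and 18S ribosomal RNA, limits what can be detected among low genes, and with 3 samples per group, KO-1 and KO-2 matching females, genotype and sex cannot be fully separated.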
